A study of Mus musculus with 6 samples.

Results

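Expression was measured for a set of endothelial and lymphatic genes, the transcripts that mark the lining of blood and lymph vessels, in distal colon next to tumours. The set is a list of 42 gene symbols, chosen with earlier results of these data known, and rows were matched to it by symbol alone. Of these symbols, 40 matched a row among the 21374 genes of the deposited table. The antisense genes Cldn5os and Ackr1os matched no row and have no value. The 40 members were sorted by their known role into 13 junction and surface genes, 9 receptor and signalling genes, 5 transcription factor and arterial genes, 5 lymphatic genes, 3 sprouting ligands and 5 leukocyte adhesion genes.

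The tissue came from male C57BL/6 mice of 18 weeks, 3 libraries labelled Otud1-/- and 3 labelled wild type. All animals, the wild type included, had received azoxymethane on day 0 at 6 weeks of age. They then went through 3 rounds of 4 days on 1.5% dextran sulfate sodium with 14 days of water, and colon was collected on day 81 after the tumours had been cut away. The labels say neither which part of Otud1 is deleted, nor in which cells, nor whether each library is a separate animal. A p-value here therefore reads only the variation among 3 libraries a label, some of which may be technical.

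Otud1, the targeted deubiquitinase gene (chromosome 2, 19657752 to 19660583, GRCm38), went against the labels, with no value under the Otud1-/- label below one under the wild type label. The libraries labelled Otud1-/- 1, 2 and 3 gave 141, 149.6 and 208 normalised reads, against 111, 45.1 and 48.9 in wild type 1, 2 and 3 by label. The change on the log2 scale was 1.37 ± 0.35 SE, limma, adjusted p = 0.0934 (exact two-sided permutation p = 0.1, the smallest that 3 against 3 libraries allow). Every direction below is therefore one between libraries as labelled, and every change is Otud1-/- minus wild type by label. A normalised read count is the number of reads of a gene divided by the size factor of its library, and values of each label are given in the order of libraries 1, 2 and 3. The libraries held 15300937 to 19406407 reads, every pair of libraries differed beyond counting error (chi-square over its degrees of freedom, 17.7 or more), and Otud1-/- 1 and wild type 1 were the least alike pair (Pearson r of log2 values 0.937).

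Endothelial cells form the inner wall of vessels. They are joined by junction proteins such as VE-cadherin, keep their state through ETS and SOX transcription factors, and read growth signals through VEGF, angiopoietin and apelin receptors. Lymphatic endothelium is set apart by the transcription factor PROX1 and by VEGFR3. In inflamed gut, endothelial cells of small veins display selectins, VCAM1, ICAM1 and MAdCAM1, on which leukocytes roll and attach. Several of these genes are not restricted to vessels: PDPN is also made by fibroblasts, LYVE1 by some macrophages, VCAM1 and ICAM1 by stromal cells, leukocytes and injured epithelium, and PROX1 by some epithelial and tumour cells.

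None of the 40 members was called between the labels (limma, Benjamini-Hochberg adjusted p under 0.05 over all genes tested), where 0.949% of the 21281 tested genes were. At an unadjusted p under 0.05 there were 8 members (20%), against 19.5% of all tested genes. By direction, 7 members were higher (17.5%, against 9.50% of all tested genes) and 1 was lower (2.50%, against 9.97%). DESeq2 on the recovered reads called 0 members and 8.40% of the genes with an adjusted p, and edgeR called 0 of 39 members and 0.544% of genes. The labels did not overlap for 10 members (25.0%), against 26.3% of all tested genes, with 8 higher (20%, against 13.0%) and 2 lower (5%, against 13.3%). The shares over both directions lie near the background, while more of these members were higher than lower. No test was made of that split, and the members were chosen with earlier results of these data known. The change was positive for 27 members (67.5%), against 51.7% of all tested genes, and the median change was 0.27 on the log2 scale, against 0.02 over all tested genes. With both library 1s left out, that median was 0.33, and 8 members (20%) had an unadjusted p under 0.05, against 13.9% of all genes tested there. Without Otud1-/- 2 there were 3 such members (7.50%), against 20.6%. After each library was scaled to the epithelium list described below, 4 members (Aplnr, Angpt2, Sox18 and Vwf) were called, where 7.06% of all genes were. Standard errors of the changes ran from 0.16 to 0.55, apart from Sele, Sox17 and Prox1, which varied more between libraries, up to 1.27.

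**Figure D1:**
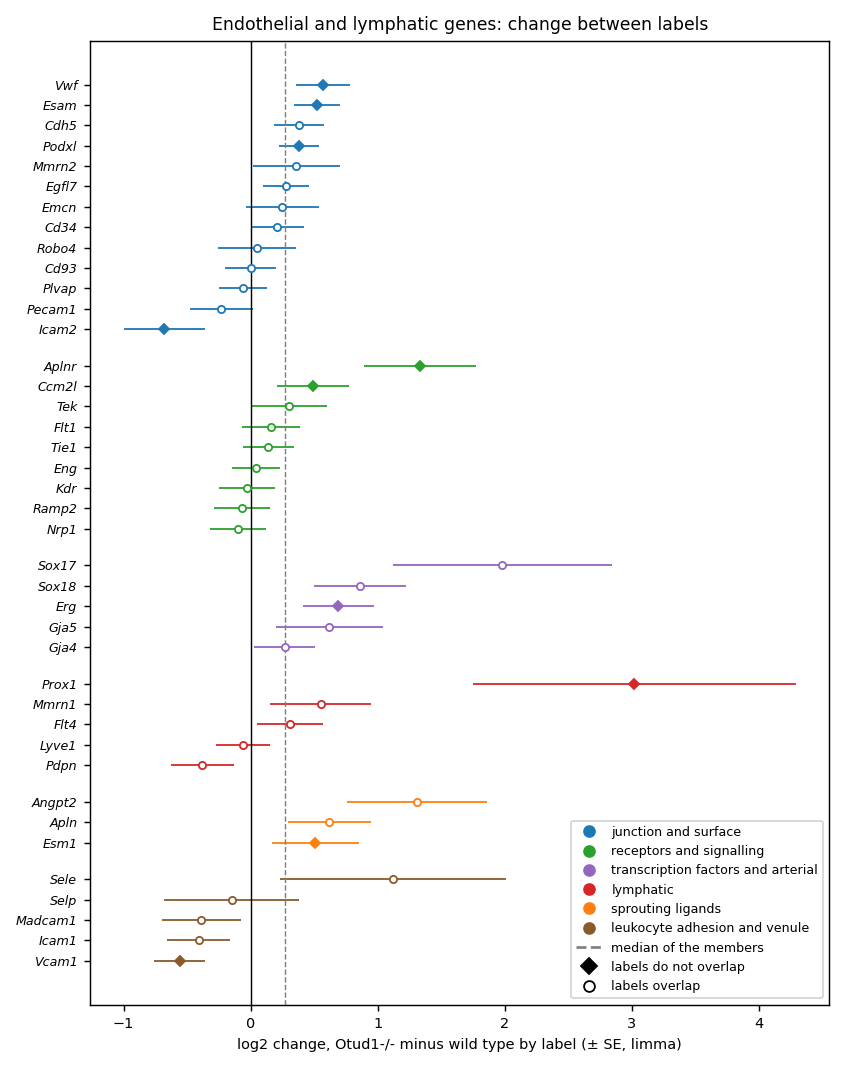
Log2 change of each of the 40 members, Otud1-/- minus wild type by label, with limma's standard error, grouped by role. Filled diamonds mark the 10 members whose labels did not overlap, the dashed line is the members' median of 0.27, and Prox1 has the largest change and the widest error.

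To compare levels between genes, values were divided by the exon length of the gene. Per kilobase, the highest member was Plvap, which encodes the diaphragm protein of fenestrated capillaries, at 348 normalised reads in the libraries labelled Otud1-/- and 352 in those labelled wild type. The pan-endothelial Pecam1 had 101 and 119 per kilobase, and the VE-cadherin gene Cdh5 had 54.5 and 41.9. At the low end stood Gja5, an arterial gap junction gene (4.50 and 2.98 per kilobase), and Sele, the gene of E-selectin (3.05 and 1.66). Each library held at least 10 reads of 38 of the 40 members, the pan-endothelial Pecam1 and Cdh5 and the lymphatic Lyve1 and Flt4 among them.

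**Figure D2:**
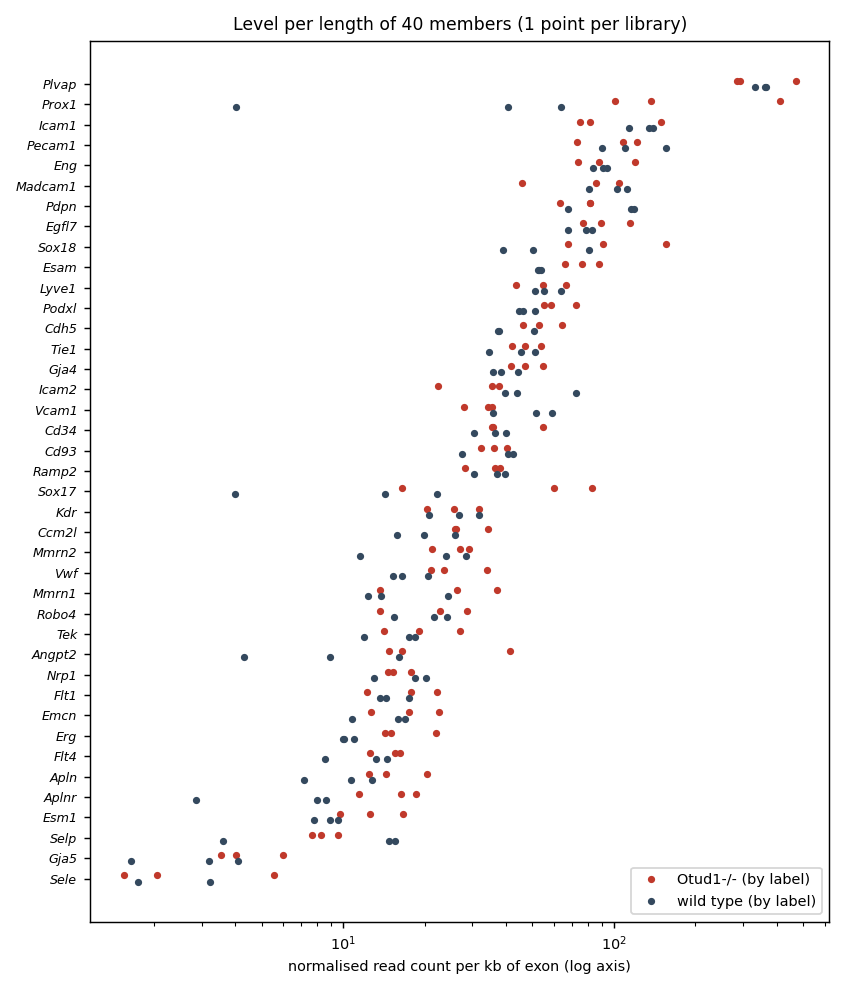
Normalised read count per kilobase of exon on a log axis for the 40 members, ordered by their mean, with 1 point per library. Sele had 0 reads in wild type 1 and is not drawn there, and Prox1 and Sox17 spread farther between libraries than their neighbours in the order.

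Among the junction and surface genes, 9 of 13 had positive changes, the median was 0.25 and 0 were called. Plvap had 565, 933 and 578 in the libraries labelled Otud1-/-, against 660.3, 724 and 715 in those labelled wild type (log2 change -0.06 ± 0.19 SE, limma, adjusted p = 0.904), so the labels overlapped. Pecam1, an adhesion molecule at junctions between endothelial cells (chromosome 11, 106654217 to 106750628), had 456, 755 and 674 under the Otud1-/- label, against 973, 685 and 564 under the wild type label (-0.23 ± 0.25 SE, limma, adjusted p = 0.65). The highest and the lowest Pecam1 values were those of wild type 1 and Otud1-/- 1, and the other libraries lay between them.

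Esam, another junction adhesion gene (chromosome 9, 37528078 to 37538319), had 189, 253 and 218 in the libraries labelled Otud1-/-, against 154, 151 and 149.9 in those labelled wild type. The values labelled wild type lay close together, all below the lowest value under the Otud1-/- label (change 0.52 ± 0.18 SE, limma, adjusted p = 0.163). Vwf, which encodes the von Willebrand factor stored in endothelial granules, had 379.7, 547 and 339 under the Otud1-/- label, against 266, 331 and 246 under the wild type label (0.57 ± 0.21 SE, limma, adjusted p = 0.184). Its labels did not overlap, with Otud1-/- 2 standing highest. Podxl, a sialomucin of the luminal surface, had 321, 397 and 303 in the libraries labelled Otud1-/-, against 245, 254 and 281 in those labelled wild type (0.38 ± 0.16 SE, limma, adjusted p = 0.237), again with no overlap. Icam2, an endothelial and leukocyte adhesion gene, stood the other way at 42.7, 67.5 and 71.6 under the Otud1-/- label, against 138, 75.2 and 83.6 under the wild type label (-0.68 ± 0.32 SE, limma, adjusted p = 0.275). Its labels did not overlap, its highest value was that of wild type 1, and the change was -0.19 without wild type 1 and Otud1-/- 1. The remaining 7 genes of this role, Cdh5, Emcn, Cd34, Cd93, Robo4, Mmrn2 and Egfl7, had overlapping labels. Their changes ran up to 0.38 in Cdh5, with Cd93 and Robo4 (0.05) nearest to 0.

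Leukocytes also carry Pecam1 and Icam2, and a list of 10 leukocyte and macrophage markers also had lower sums under the Otud1-/- label. It summed to 8725, 9426 and 9862 in the libraries labelled Otud1-/-, against 18173, 17076 and 13848 in those labelled wild type, with 10 of 10 negative changes (median -0.78) and 0 called. The labels did not overlap for 7 of its 10 genes (70%, against 26.3% of all tested genes). The part of this list in the values of Pecam1 and Icam2 was not tested. In bulk tissue, fewer cells of a type and less RNA per cell cannot be told apart.

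Of 9 receptor and signalling genes, 6 had positive changes, the median was 0.14 and 0 were called. After scaling to the junction and surface genes their median was -0.02, where that of all tested genes was -0.14 in place of 0.02. Aplnr, the apelin receptor of sprouting and venous endothelium (chromosome 2, 85136225 to 85139923), had 60.6, 68.6 and 42.4 in the libraries labelled Otud1-/-, against 10.5, 32.0 and 29.6 in those labelled wild type. The labels did not overlap, although the counts were low and wild type 1 was lowest (log2 change 1.33 ± 0.44 SE, limma, adjusted p = 0.153). The change was 0.79 without wild type 1 and Otud1-/- 1 (limma, adjusted p = 0.379). Ccm2l, a heart and vessel scaffold gene, had 62.3, 82.1 and 62.6 under the Otud1-/- label, against 38.0, 62.1 and 47.9 under the wild type label (0.49 ± 0.28 SE, limma, adjusted p = 0.368), with no overlap by a margin under 1 read.

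Kdr, the gene of the main VEGF receptor, had 183, 287 and 232 in the libraries labelled Otud1-/-, against 287, 241 and 188 in those labelled wild type (-0.03 ± 0.22 SE, limma, adjusted p = 0.961). Eng, a TGF-beta co-receptor, had 299, 484 and 356 under the Otud1-/- label, against 338, 380.0 and 368 under the wild type label (0.04 ± 0.19 SE, limma, adjusted p = 0.93). For both genes the labels overlapped, and the changes lay well inside their standard errors. The VEGF decoy receptor gene Flt1 (0.16), the angiopoietin receptor gene Tek (0.30), its partner Tie1 (0.14), the co-receptor gene Nrp1 (-0.10) and the adrenomedullin co-receptor gene Ramp2 (-0.07) had overlapping labels too. Ramp2 shares 33.4% of its exon length with Vps25 on the same strand, so its reads may be split between the genes.

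Transcription factors and arterial genes all had positive changes (5 of 5, median 0.69), and 0 were called. Erg, the ETS factor that maintains endothelial identity (chromosome 16, 95359169 to 95586593), had 52.1, 76.5 and 49.4 in the libraries labelled Otud1-/-, against 38.0, 34.8 and 34.7 in those labelled wild type (log2 change 0.69 ± 0.28 SE, limma, adjusted p = 0.226). Its labels did not overlap, and the values labelled wild type lay close together. Sox18, a SOX factor of blood and lymphatic endothelium, had 148, 252 and 110.0 under the Otud1-/- label, against 63.3, 131 and 81.6 under the wild type label (0.86 ± 0.36 SE, limma, adjusted p = 0.237), and its labels overlapped. Sox17, a factor of arterial endothelium that is also active in other lineages, had 394, 286 and 78.7 in the libraries labelled Otud1-/-, against 19.0, 106 and 68.3 in those labelled wild type (1.98 ± 0.86 SE, limma, adjusted p = 0.288). Otud1-/- 1 was highest and wild type 1 lowest, and the change was 0.81 without those libraries. On the opposite strand, Gm37587 covers 16.8% of the exon length of Sox17, and the strand setting of the counting is not given in the sources used here. The arterial connexin genes Gja4 and Gja5 had changes of 0.27 and 0.62 with overlapping labels.

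**Figure D3:**
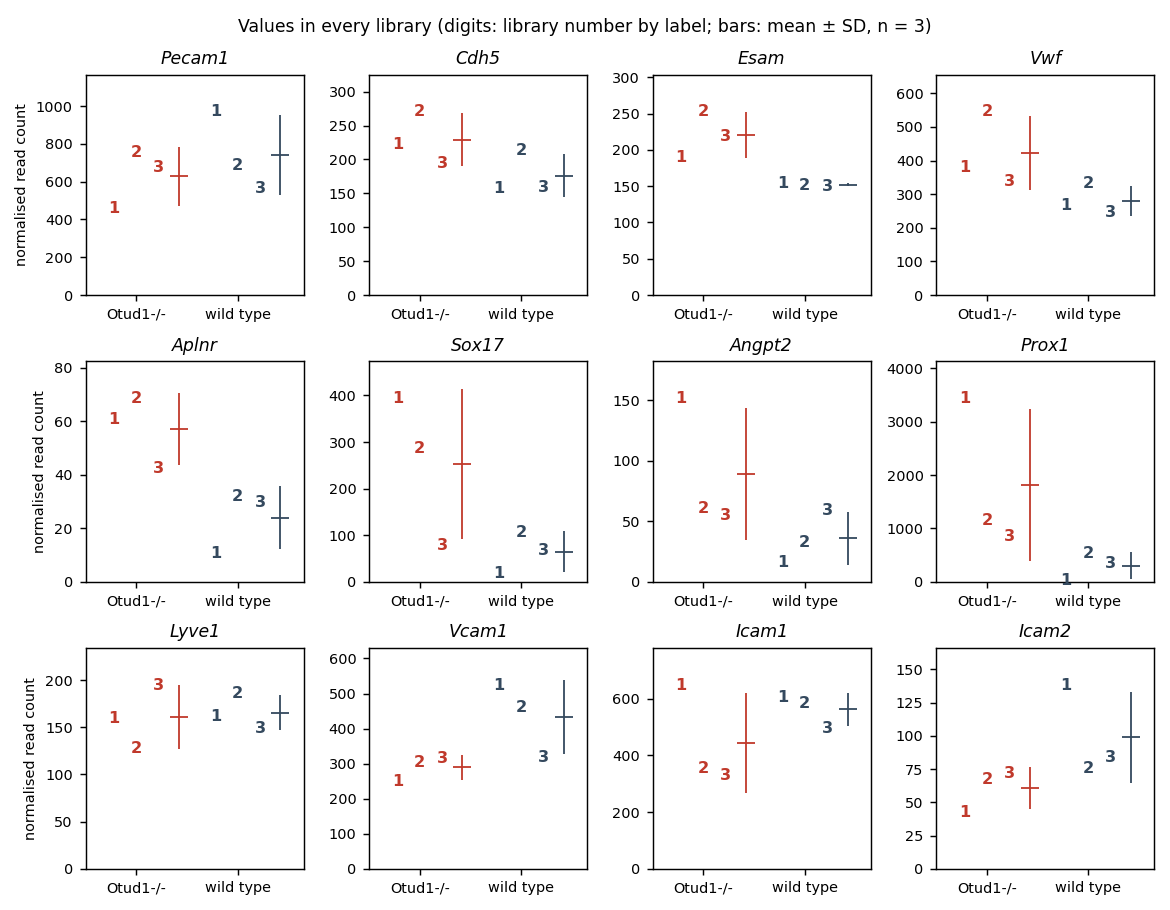
Normalised read counts of 12 members in every library, with the digit giving the library number, Otud1-/- left of wild type by label, and the mean ± SD of 3 libraries beside them. Esam, Vwf, Aplnr, Prox1, Vcam1 and Icam2 show no overlap between labels, and Sox17, Angpt2 and Prox1 are highest in Otud1-/- 1 and lowest in wild type 1.

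Because ETS factors such as ERG bind promoters of many endothelial genes, the bases before the start sites were searched for AGGAAG, a form of the ETS core, on both strands. RefSeq promoters (GRCm38.p6) were matched by symbol for 23 of the 40 members, taking the first listed start of each gene, and Pecam1 and Cdh5 had no entry. In the 250 bases before the start, 13 of 23 members (56.5%) held the letters, against 29.2% of 27025 genes. The SOX forms ACAAAG or ACAATG stood in 7 of 23 members (30.4%), against 25.5% of all. A match is a description of letters, not a site. The promoters of Erg, Prox1 and Apln are shown as those of the members with the smallest p that had an entry, and those of Eng and Flt1 because they held 2 matches each outside any annotated exon of the gene, a choice made after the matches were counted. Each is 250 bases, 5′ to 3′ on the strand of the gene, and capitals mark AGGAAG or its reverse complement.
Erg: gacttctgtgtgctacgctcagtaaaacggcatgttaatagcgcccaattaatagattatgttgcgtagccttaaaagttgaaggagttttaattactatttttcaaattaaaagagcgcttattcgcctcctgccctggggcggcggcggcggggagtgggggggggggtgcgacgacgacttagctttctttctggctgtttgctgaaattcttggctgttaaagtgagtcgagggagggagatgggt
Prox1: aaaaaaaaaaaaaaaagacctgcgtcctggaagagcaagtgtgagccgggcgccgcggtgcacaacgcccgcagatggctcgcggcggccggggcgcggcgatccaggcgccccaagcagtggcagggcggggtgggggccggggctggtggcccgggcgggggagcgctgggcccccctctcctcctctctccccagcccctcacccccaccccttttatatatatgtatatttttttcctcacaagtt
Apln: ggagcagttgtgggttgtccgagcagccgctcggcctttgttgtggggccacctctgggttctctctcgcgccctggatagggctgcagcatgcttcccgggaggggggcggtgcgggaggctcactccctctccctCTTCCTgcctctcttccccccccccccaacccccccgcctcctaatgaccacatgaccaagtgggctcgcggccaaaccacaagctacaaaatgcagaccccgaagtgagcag
Eng: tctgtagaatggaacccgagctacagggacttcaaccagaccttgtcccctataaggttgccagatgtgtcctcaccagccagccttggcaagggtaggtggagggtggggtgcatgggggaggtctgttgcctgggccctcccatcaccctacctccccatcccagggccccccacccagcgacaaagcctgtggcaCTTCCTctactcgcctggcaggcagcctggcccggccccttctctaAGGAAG
Flt1: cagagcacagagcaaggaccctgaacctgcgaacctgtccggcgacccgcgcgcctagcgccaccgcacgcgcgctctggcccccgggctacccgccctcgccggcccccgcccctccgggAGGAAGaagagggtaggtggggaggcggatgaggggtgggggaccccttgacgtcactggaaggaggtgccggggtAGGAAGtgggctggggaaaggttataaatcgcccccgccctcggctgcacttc
These windows, whose RefSeq starts can differ from the GENCODE gene ends given here, are chr16:95586594-95586843 (minus strand) for Erg, chr1:190170828-190171077 (minus) for Prox1, chrX:48034854-48035103 (minus) for Apln, chr2:32646345-32646594 (plus) for Eng and chr5:147726012-147726261 (minus) for Flt1. Erg and Prox1 held 0 matches, Apln 1, and Eng and Flt1 2 each, of which a match in Eng ended at the last base before the start. Egfl7 (log2 change 0.28) and Madcam1 (-0.39) were among the members that held the letters, and Prox1 (3.02) and Icam1 (-0.41) among those that did not.

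Of the lymphatic genes, Prox1 stood apart from the others. Prox1, the transcription factor of lymphatic identity (chromosome 1, 190118035 to 190170714), had 3439, 1154 and 846 in the libraries labelled Otud1-/-, against 33.8, 534 and 339.6 in those labelled wild type (mean 1813 ± 1417 in the libraries labelled Otud1-/- and 303 ± 252 in those labelled wild type, SD, n = 3 each). The labels did not overlap, and values within a label differed widely, and the change was not called (log2 change 3.02 ± 1.27 SE, limma, adjusted p = 0.294). It was 1.21 without wild type 1 and Otud1-/- 1 (limma, adjusted p = 0.0537) and 1.81 without wild type 1 alone.

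The other lymphatic genes did not share this order of libraries. Lyve1, the hyaluronan receptor of lymphatic capillaries, had 159.6, 127 and 195 under the Otud1-/- label, against 161, 185 and 149 under the wild type label (-0.06 ± 0.21 SE, limma, adjusted p = 0.913). Pdpn, the gene of podoplanin, had 115, 148 and 148 in the libraries labelled Otud1-/-, against 123, 211 and 215 in those labelled wild type (-0.38 ± 0.25 SE, limma, adjusted p = 0.446). Both had overlapping labels. Flt4, the gene of VEGFR3, and Mmrn1, an extracellular protein of lymphatic endothelium, had changes of 0.31 and 0.55, also with overlap. Per kilobase, Prox1 stood at 409.9, 138 and 101 under the Otud1-/- label and 4.02, 63.7 and 40.5 under the wild type label. Flt4 stood at 12.5, 15.6 and 16.2 per kilobase under the Otud1-/- label and 14.5, 13.3 and 8.55 under the wild type label. The mean log2 level of the 4 lymphatic genes other than Prox1, less that of the junction and surface genes, was -0.77, -0.98 and -0.39 in the libraries labelled Otud1-/-, against -0.87, -0.48 and -0.64 in those labelled wild type. These ranges overlap. With Prox1 included it was 0.22, -0.37 and 0.07, against -1.23, -0.13 and -0.33.

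Crypt stem cell and Wnt target genes, a list added after the values of Prox1 were seen, were highest in Otud1-/- 1 and lowest in wild type 1 in 8 of 8 cases. These genes summed to 26343, 9795 and 7120 in the libraries labelled Otud1-/-, against 978, 5003 and 4139 in those labelled wild type, with 8 of 8 positive changes (median 2.31), 8 of 8 without overlap between labels and 0 called. Of all tested genes, 26.3% had labels that did not overlap, 24.8% were highest in Otud1-/- 1 and 20.5% were lowest in wild type 1. The share with both extremes was not counted. Since the list was chosen with the values of Prox1 known, its likeness to Prox1 is a description only. Without wild type 1 and Otud1-/- 1 the median of the list was 0.92. In that fit 3 of its genes were called, as were 394 of the 20687 genes tested. Of the 3 genes with the smallest p, Smoc2, a matricellular gene of crypt stem cells, had 2865, 973 and 1218 under the Otud1-/- label, against 189, 535 and 566 under the wild type label (1.96 ± 0.62 SE, limma, adjusted p = 0.19). Ascl2, a transcription factor of those cells, had 502, 166 and 131 in the libraries labelled Otud1-/-, against 29.5, 80.9 and 101 in those labelled wild type (1.82 ± 0.65 SE, limma, adjusted p = 0.209). Axin2, a feedback target of Wnt signalling, had 3649, 1394 and 935 under the Otud1-/- label, against 189, 855 and 522 under the wild type label (1.94 ± 0.78 SE, limma, adjusted p = 0.269). Prox1, Sox17 and Angpt2 have the same highest and lowest library, and the part of this list in their values was not tested. A list of 8 enteroendocrine genes, added for the same reason, had a median of -0.26, with overlapping labels for 8 of 8.

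Lymphatic genes outside the set, on a list of 11, gave 10 tested genes, all but Ccl21a. There were 10 positive changes (median 0.73), 5 genes without overlap (50%, against 26.3% of all tested genes) and 0 called. Reln (0.02) and Stab2 (0.38) were among the genes with overlap. Foxc2, a factor of lymphatic valves, had 76.8, 49.5 and 57.5 in the libraries labelled Otud1-/-, against 4.22, 28.2 and 7.14 in those labelled wild type (2.51 ± 0.60 SE, limma, adjusted p = 0.0858), at low counts. Tbx1, a factor needed for lymphatic growth, had 78.5, 61.9 and 52.5 under the Otud1-/- label, against 8.44, 37.6 and 23.5 under the wild type label (1.64 ± 0.49 SE, limma, adjusted p = 0.127). Nrp2, the VEGF-C co-receptor gene, which smooth muscle and neurons use as well, had 864, 1234 and 1177 in the libraries labelled Otud1-/-, against 629, 689 and 545 in those labelled wild type (0.80 ± 0.16 SE, limma, adjusted p = 0.0551). The labels did not overlap for any of these 3 genes, and 0 of them passed the test. Foxc2 and Tbx1 were also highest in Otud1-/- 1 and lowest in wild type 1, as was Gata2 of the same list. Without those libraries the change was 1.82 in Foxc2 (limma, adjusted p = 0.174), 0.92 in Tbx1 (adjusted p = 0.292) and 0.97 in Nrp2, which was then called (adjusted p = 0.00627), as were 394 of the 20687 genes tested.

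The sprouting ligands all had positive changes (3 of 3, median 0.62), with 0 called. Angpt2, an angiopoietin made by activated endothelium that modulates the TEK receptor (chromosome 8, 18690263 to 18741562), had 152, 60.7 and 54.5 in the libraries labelled Otud1-/-, against 15.8, 32.9 and 59.1 in those labelled wild type (log2 change 1.31 ± 0.55 SE, limma, adjusted p = 0.239). Otud1-/- 1 alone stood far above the rest, and the labels overlapped through wild type 3. The change was 0.37 without wild type 1 and Otud1-/- 1. Apln, which encodes the ligand of the apelin receptor and marks tip cells, had 64.0, 39.4 and 45.4 under the Otud1-/- label, against 40.1, 22.6 and 33.6 under the wild type label (0.62 ± 0.33 SE, limma, adjusted p = 0.343), with overlap. Esm1, a proteoglycan of tip cells, had 20.5, 34.9 and 26.2 in the libraries labelled Otud1-/-, against 20.04, 18.8 and 16.3 in those labelled wild type (0.51 ± 0.34 SE, limma, adjusted p = 0.444), with no overlap by a margin under 1 read.

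A list of VEGF, angiopoietin and other ligand genes had changes of both signs, 5 positive and 5 negative of 10 (median -0.01), and 0 were called. The labels did not overlap for 4 of the 10 (40%, against 26.3% of all tested genes), 1 higher (Pgf) and 3 lower (Adm, Angptl4 and Vegfc). Of the negative changes, Vegfa had -0.31 and Vegfc -0.22. Adm, Angptl4 (-0.49) and Efna1 (-0.47), which encode neither VEGFs nor angiopoietins, had the others. Adm, the gene of the vasodilator adrenomedullin, had 203, 357 and 211 under the Otud1-/- label, against 667, 589 and 466 under the wild type label (-1.19 ± 0.24 SE, limma, adjusted p = 0.0551). Pgf, placental growth factor, had 52.9, 39.4 and 23.2 in the libraries labelled Otud1-/-, against 9.49, 12.2 and 18.4 in those labelled wild type (1.43 ± 0.42 SE, limma, adjusted p = 0.119). Their labels did not overlap. Angpt4, an angiopoietin, had 89.6, 22.5 and 18.2 under the Otud1-/- label, against 2.11, 18.8 and 9.18 under the wild type label (2.01 ± 0.82 SE, limma, adjusted p = 0.233), with overlap. Pgf and Angpt4 were highest in Otud1-/- 1 and lowest in wild type 1, and without those libraries their changes were 0.97 and 0.58. Of 9 Notch and Eph genes of vessels, 7 had positive changes (median 0.28), 0 were called and 0 were without overlap. The endothelial Notch receptor gene Notch4 had 465, 301 and 388 under the Otud1-/- label, against 456, 719 and 558 under the wild type label (-0.58 ± 0.21 SE, limma, adjusted p = 0.179). The venous Ephb4 (0.63) and the arterial Efnb2 (-0.53) followed by size of p, and epithelial cells also express both.

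Leukocyte adhesion genes were the only role with mostly negative changes, 4 of 5, with a median of -0.39 and 0 called. Scaled to the epithelium list, the role had a median of 0.01 and 3 of 5 positive changes. That scaling moved the median of all tested genes to 0.42 from 0.02, so the role still lay below it. Vcam1, the receptor for leukocyte integrin alpha 4 (chromosome 3, 116109949 to 116129688), had 248, 304 and 315 in the libraries labelled Otud1-/-, against 524, 459 and 316 in those labelled wild type (log2 change -0.56 ± 0.20 SE, limma, adjusted p = 0.186). The labels were parted by a single pair of nearly equal values, those of Otud1-/- 3 and wild type 3, and the change was -0.30 without wild type 1 and Otud1-/- 1. Icam1, the receptor for integrin beta 2, had 649, 354 and 328 under the Otud1-/- label, against 605, 585 and 497 under the wild type label (-0.41 ± 0.25 SE, limma, adjusted p = 0.408). Its highest value was that of Otud1-/- 1, above all values labelled wild type, while Otud1-/- 2 and 3 lay below them. Without Otud1-/- 1, Icam1 was called as lower (-0.72, limma, adjusted p = 0.0489), as were 1.58% of all genes in either direction. An antisense transcript, Gm47079, covers 11.7% of its exon length.

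Madcam1, the mucosal addressin that guides lymphocytes into gut, had a change of -0.39 with overlap. The selectin genes were scarce: Selp had 36.7, 33.7 and 42.4 in the libraries labelled Otud1-/-, against 15.8, 68.7 and 65.3 in those labelled wild type (-0.15 ± 0.53 SE, limma, adjusted p = 0.907), and Sele had 5.97, 4.50 and 16.1 under the Otud1-/- label, against 0, 9.40 and 5.10 under the wild type label (1.12 ± 0.89 SE, limma, adjusted p = 0.523). Sele had 0 reads in wild type 1, where a count of 0 allows up to 3 reads, and its values spread widely within both labels. A list of 10 interferon and TNF genes held the cytokine genes Ifng (0.04), Tnf (-0.15) and Il1b beside target genes. Of these 10, 8 had negative changes (median -0.62) and 5 were without overlap (50%, against 26.3% of all tested genes). Il1b fell to 497, 394 and 433 under the Otud1-/- label, against 719, 858 and 738 under the wild type label (-0.81 ± 0.14 SE, limma, adjusted p = 0.038), where 0.667% of all tested genes were called lower. The Il1b call ended with total-read scaling (adjusted p = 0.0837), epithelial scaling (0.386), limma without trend and robust moderation (0.167), the replicate block (0.149) and edgeR (0.0522), and without Otud1-/- 3 or any 1 of the wild type libraries (0.0834 to 0.163). The interferon regulatory gene Irf1 (-0.79 ± 0.16 SE, limma, adjusted p = 0.0558) and the NF-kB inhibitor gene Nfkbia (-0.58 ± 0.12 SE, limma, adjusted p = 0.0601) did not pass. Their part in the adhesion genes was not tested.

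Further blood endothelial genes, a list of 25, had 20 positive changes (median 0.23), 7 genes without overlap (28.0%, against 26.3% of all tested genes) and 0 called. Cldn5, the endothelial claudin, had 58.0, 105 and 103 in the libraries labelled Otud1-/-, against 49.6, 49.8 and 47.9 in those labelled wild type (0.79 ± 0.29 SE, limma, adjusted p = 0.188), and the labels did not overlap. Cav1, the caveolin gene, had 1431, 2115 and 1845 under the Otud1-/- label, against 1118, 1225 and 1098 under the wild type label (0.63 ± 0.15 SE, limma, adjusted p = 0.0788), and the water channel gene Aqp1 had 563, 665 and 685 in the libraries labelled Otud1-/-, against 372, 479.7 and 427 in those labelled wild type (0.58 ± 0.14 SE, limma, adjusted p = 0.0868), neither with overlap. Both are also expressed outside vessels, Cav1 in smooth muscle among others.

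Markers of the cells that wrap vessels and of the muscle layers had larger median changes than the 40 members together (0.27). The further lymphatic list (0.73) and the transcription factor and arterial role (0.69) stood above the pericyte median. Of 10 pericyte markers, 8 had positive changes (median 0.64) and Mcam, an adhesion molecule of pericytes, smooth muscle and some endothelium, rose to 678, 1018 and 873 under the Otud1-/- label, against 474, 487 and 476 under the wild type label (0.82 ± 0.15 SE, limma, adjusted p = 0.0492), where 0.282% of all tested genes were called higher. Pdgfrb (-0.15 ± 0.18 SE) and Ebf1 (-0.97 ± 0.52 SE) of the same list had negative changes, with overlapping labels. The list also counted the ligand gene Pdgfb (0.34). The Mcam call ended without any 1 library other than Otud1-/- 1 (adjusted p of 0.0614 to 0.182). It also ended with a pseudocount of 0.1, a filter at a mean of 5, quantile normalisation, scaling to the junction and surface genes, limma without trend and robust moderation, the replicate block and edgeR (0.056 to 0.187). Rgs5, the regulator gene that marks pericytes, had 2346, 3512 and 2544 in the libraries labelled Otud1-/-, against 1489, 1195 and 830.0 in those labelled wild type (1.27 ± 0.24 SE, limma, adjusted p = 0.0551), and Cspg4, which encodes NG2, had 175, 333 and 297 under the Otud1-/- label, against 104, 120.4 and 114 under the wild type label (1.19 ± 0.25 SE, limma, adjusted p = 0.0614), neither of them called. Smooth muscle markers, 10 of 10 positive (median 1.10), summed to 54674, 113981 and 82607 in the libraries labelled Otud1-/-, against 35382, 36479 and 33377 in those labelled wild type, with Myh11 (1.30 ± 0.23 SE, limma, adjusted p = 0.0492) and Synm (1.32 ± 0.22 SE, limma, adjusted p = 0.044) called. Both encode proteins of the contractile apparatus or its filaments, and the numbers called turned on the setting. Of these 10 genes, 7 to 8 were called under each of the other scalings and 8 with DESeq2, against 0 with a pseudocount of 0.1, a filter at a mean of 5, limma without trend and robust moderation, the replicate block or edgeR (adjusted p of 0.056 to 0.183 in Myh11 and 0.0509 to 0.176 in Synm). There were 8 called without Otud1-/- 1 and 2 without Otud1-/- 2, against 0 without Otud1-/- 3 or any 1 of the wild type libraries. Fibroblast markers had a median of 0.03 with 0 called. Epithelial markers had 13 of 15 negative changes (median -0.56) and 0 called, and summed to 312234, 481249 and 362101 in the libraries labelled Otud1-/-, against 561684, 495898 and 591763 in those labelled wild type. Of 6 platelet genes 4 were tested, with a median of 0.21 and 0 called, and Pf4 had the smallest p (-1.09 ± 0.31 SE, limma, adjusted p = 0.115). The junction and surface members summed to 3175, 4662 and 3523 in the libraries labelled Otud1-/-, against 3641, 3621 and 3114 in those labelled wild type. For these sums the labels overlapped, and for the pericyte and smooth muscle sums they did not. The further blood endothelial sums did not overlap either, at 4389, 5398 and 4925 under the Otud1-/- label, against 3766, 4145 and 3402 under the wild type label. Nor did the further lymphatic sums. Overlap of sums therefore did not part endothelial lists from those of pericytes and muscle. The mean log2 levels of the further blood endothelial list did overlap. The difference between these lists was not tested.

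Library by library, Otud1-/- 2 gave the highest value of 18 of 40 members (45.0%), against 16.6% of all tested genes. The smooth muscle sum was highest in the same library, as were the sums of the pericyte, fibroblast, further blood endothelial and further lymphatic lists. The lowest value was that of wild type 1 for 13 members (32.5%, against 20.5% of all tested genes) and of wild type 3 for another 13 (32.5%, against 15.7%). Relative to the mean of the wild type label, the members' median stood at 0.09, 0.44 and 0.23 on the log2 scale in Otud1-/- 1, 2 and 3. Leaving out Otud1-/- 2 gave a median change of 0.18, and leaving out wild type 3 gave 0.14.

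**Figure D4:**
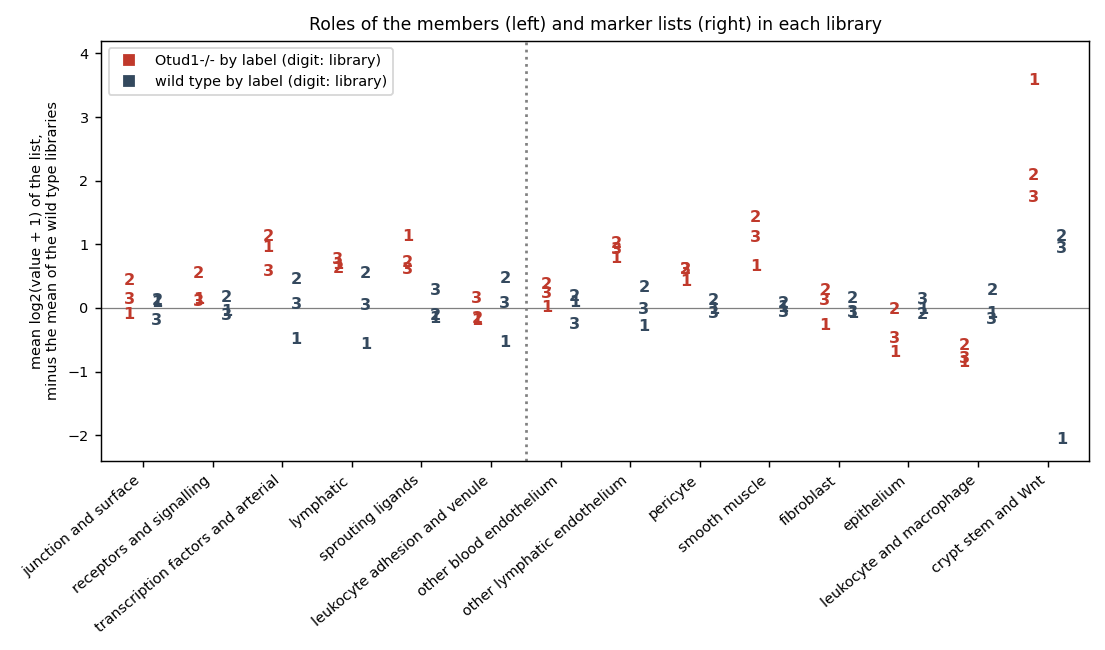
Mean log2(value + 1) of each role of the members (left of the dotted line) and of marker lists (right), less the mean of the wild type label, with the digit giving the library and Otud1-/- left of wild type. Junction, receptor and leukocyte adhesion genes overlap between labels. Transcription factor and arterial, sprouting and lymphatic genes (Prox1 included) lie higher in each library labelled Otud1-/-. The other lymphatic, pericyte and smooth muscle lists do so too. So does the crypt stem and Wnt list, which spreads from wild type 1 at the bottom to Otud1-/- 1 at the top. The leukocyte and macrophage list lies lower in each library labelled Otud1-/-.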

How the data were processed

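The deposited table gives a normalised signal per gene, on the build mm10, per the submitters' processing notes. For the aligner, read counter, strand setting and annotation, the sources used here give nothing. Every value was a whole multiple of 1 step per library, which gave whole reads for 100% of values (tolerance 0.001 of a read), with 15300937 to 19406407 reads per library. Symbols, exon lengths and coordinates came from GENCODE vM21 on GRCm38, the same assembly as mm10, for 21317 of 21374 IDs. Libraries were grouped by their titles.

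The test took the 21281 genes that reached a value of 1 in 3 or more libraries, with limma 3.58.1 in R 4.3.3 on log2(value + 1), with trend and robust moderation, two-sided, with genotype as the only term and p-values adjusted by Benjamini-Hochberg over these genes. Changes on this scale are understated for genes with few reads. DESeq2 1.42.0 and edgeR 4.0.16 on the recovered reads were alternatives, beside other scalings, filters and pseudocounts and fits without single libraries. The members, roles and lists were chosen with earlier results of these data known. Values in every library are given for members with an unadjusted p under 0.05 or labels that do not overlap, and for the 2 members of each role with the highest mean normalised read count, not per length. Of each list, up to 3 genes with the smallest p are named. Lists are described by counts and medians, with no test.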

Additional observations from a re-analysis of the deposited data

How the results depend on the processing

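The number of genes called, 202, was 118 with a pseudocount of 0.1, 122 with a filter at a mean of 5, 413 when libraries were scaled to their total reads, 1503 when scaled to epithelial markers, 0 with limma without trend and robust moderation (3499 genes and 4 members at an unadjusted p under 0.05), 91 with edgeR and 1412 with DESeq2. It was 10 to 340 without single libraries (333, 340 and 114 without Otud1-/- 1, 2 and 3, and 35, 11 and 10 without wild type 1, 2 and 3), 394 without wild type 1 and Otud1-/- 1, and 952 after scaling to the endothelial junction and surface genes, a setting chosen after seeing the data. With the replicate number as a block it was 18, and 0 members were called; libraries of the same number did not deviate together (r of -0.264, -0.1 and -0.088), and no library labelled Otud1-/- correlated best with its own number.

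Of the members, 0 were called in each of these settings except 4 with epithelial scaling (Aplnr, Angpt2, Sox18 and Vwf, with adjusted p of 0.00637, 0.00765, 0.0178 and 0.0405 by limma), where 7.06% of all genes were, and 0 to 1 without single libraries, Icam1 without Otud1-/- 1. The members' median of 0.27 was 0.48 with total reads and 0.67 with epithelial scaling, where the median of all genes was 0.22 and 0.42 in place of 0.02. Less that of all genes, it was 0.26 and 0.25. It was 0.15 after quantile normalisation and 0.14 to 0.38 without single libraries. In 24 of 40 members the sign was the same in all 18 settings, and in 15 it turned in at least 1; Sele, not tested by edgeR, kept its sign in the others. Otud1 passed with epithelial scaling (1.77, limma, adjusted p = 0.000473), with DESeq2 (1.29, adjusted p = 0.0148), without wild type 1 and Otud1-/- 1 (1.89, 0.00495) and after scaling to the junction genes (1.22, 0.018), with adjusted p between 0.000473 and 0.258 over all settings, and its change was 1.14 to 1.78 without single libraries. The causes were not tested.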
